A study of Mus musculus with 4 samples.

Results

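The extracellular matrix is the network of collagens, laminins and glycoproteins that cells secrete around themselves. Integrins, paired α and β chains in the plasma membrane, bind this network and connect it to actin, while cadherins join cells to each other through catenins. Metalloproteinases of the MMP, ADAM and ADAMTS families cut matrix and surface proteins, and TIMPs and many serpins inhibit proteases. Neural stem cells lie against laminin-rich basement membranes in the brain, and integrins and cadherins hold them in their niche.

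The genes described here are the 128 whose symbol marks them as a member of these families, out of 8519 genes with a single symbol in the sheet of changed probes that the authors deposited. They were chosen by a pattern on the symbol, which takes in collagens, laminins, integrins, cadherins, protocadherins, syndecans, glypicans, matrix glycoproteins, metalloproteinases, TIMPs, serpins, and lysyl oxidases and other collagen-modifying enzymes. They were represented by 140 of the 26423 probes on the array. The pattern also caught Col4a3bp, which encodes a ceramide transfer protein, Itgb1bp1, an intracellular integrin-binding protein, and Itgbl1, a secreted protein related to integrin β chains. The other 125 belong to the named families.

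Gene expression was measured on 4 single-colour arrays of C17.2 cells, an immortalised line of mouse multipotent neural progenitors. The 2 berberine arrays came from cells given 7.38 mM AAPH, a compound that decomposes into peroxyl radicals, together with 1.69 µM berberine, a plant alkaloid, for 12 h. The 2 AAPH-only arrays came from cells given AAPH alone for the same time. All 4 samples thus received AAPH, and no untreated cells are among them. Nothing in the labels says that replicates were separate cultures, so p-values measure only the spread between these samples. Arrays of the berberine group had median intensities of 189 and 206, against 333 and 273 in the AAPH-only group, while the 99th percentile ran the other way, at 96496 and 83026 against 66711 and 54628. The spread of intensities thus went with treatment, and its part in the results was not tested. The neural progenitor label could be checked on only 2 of 9 listed markers, since only changed probes carry names: Msi1 had intensities of 2153 and 2391 with berberine and 2214 and 1834 with AAPH alone, and Prom1 had 591 and 639 against 283 and 236.

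Values below are deposited probe intensities, in linear units of brightness. Fold changes are berberine over AAPH alone after quantile normalization, and the value after ± is the standard error from limma (log2 scale, n = 2 arrays per group). Where the authors' detection p-value was 0.01 or more in a group, the probe was taken as at background there and its change is given as a bound on the normalized scale, "at least N-fold". Normalization raised many changes above the ratio of the deposited values, so for rises such a bound can exceed that ratio. Because the sheet lists only probes that the authors had called on these same arrays, passing a test was close to fixed beforehand and is not a finding about these genes. Below, a gene or marker counts as measured where that sheet names it. Others may have been on the array without being called. Of the 128, 127 passed the limma test (Benjamini-Hochberg adjusted p from 0.000186 upwards), while 62.7% of all probes passed, 40.2% as higher and 22.5% as lower. The exception was Thbs2 (adjusted p = 0.0526).

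As a whole the families were split. With berberine 72 of the 128 genes rose and 55 fell, or 56.2% and 43.0%, against 55.6% and 44.1% of all named genes, so the share in each direction was that of the background. The median log2 fold change was 1.31, against 1.22 over all named genes. The median rise was 1.84. With bounds in place of fitted values for probes at background, 25 genes were 4-fold higher or more, and 34 were 4-fold lower or more, of which 12 were 16-fold lower or more. Over all 8519 named genes the same counts were 1538, 2327 and 881, so large changes were common throughout. Genes that only the AAPH-only group detected numbered 23, or 18.0% against 16.6% of all named genes, and the reverse held for 9, or 7.03% against 3.74%. After quantile normalization the median over every probe on the array lay at 0.39 (log2), and on deposited values at 0.13.

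**Figure D1:**
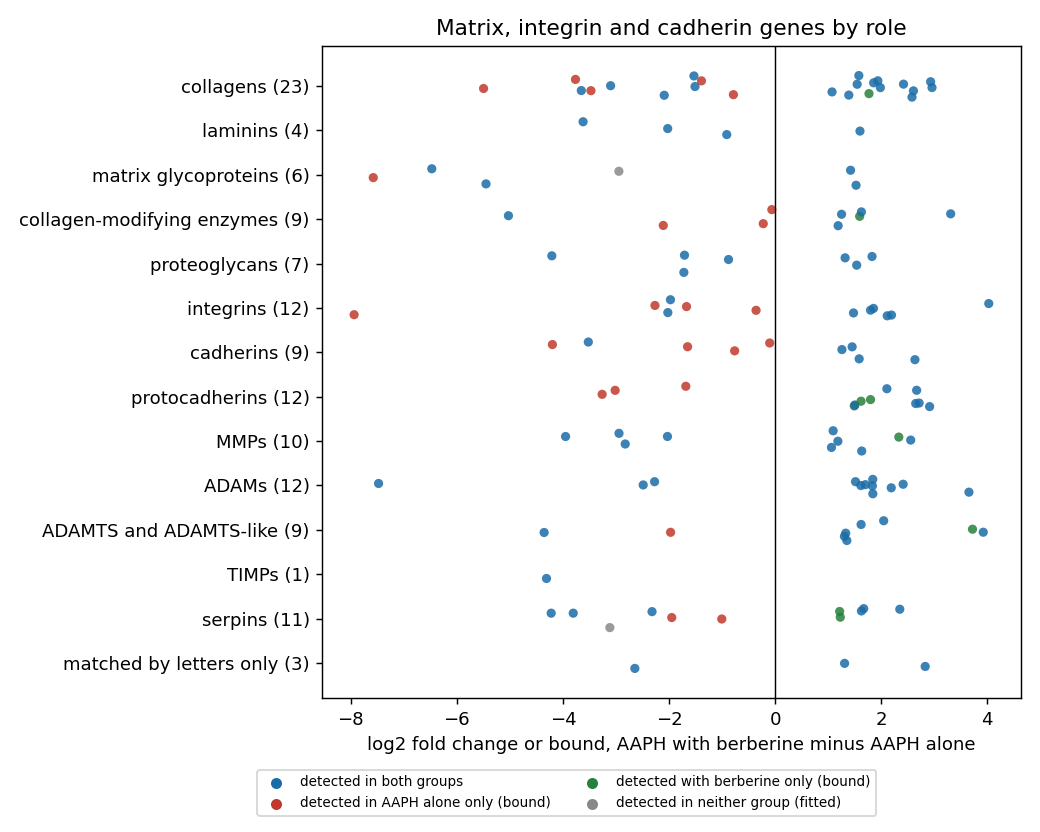
Log2 fold change of each of the 128 genes (x axis, berberine over AAPH alone), 1 point per gene, in rows by the role of the protein, with the number of genes in brackets. Red and green points are bounds for probes at background in a group. Every role with more than 1 gene has points on both sides of 0, and the falls of Fn1, Itgb5, Adam10 and Cyr61 extend furthest to the left.

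Direction went with brightness. The named genes were split into 4 classes of equal size by their level on the AAPH-only arrays. In the brightest class 25 of 32 genes fell (78.1%), including the fibronectin, laminin β1, thrombospondin and MMP2 genes, and 7 rose. In the dimmest class 12 of 49 fell (24.5%) and 36 rose. All named genes showed the same gradient, with 70.6% falling in the brightest class and 21.6% in the dimmest. The level with AAPH alone is itself part of the fold change, so the gradient is a description.

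**Figure D2:**
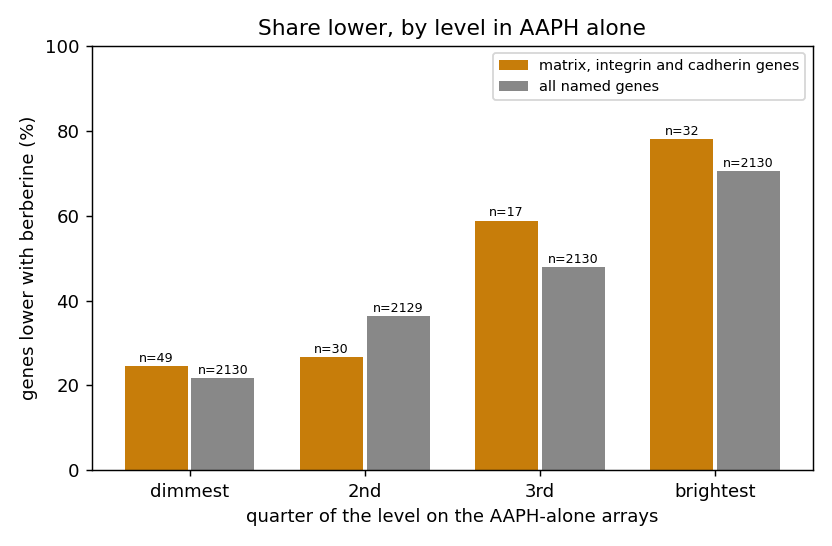
Share of genes that were lower with berberine (y axis, percent), by class of normalized level on the AAPH-only arrays (x axis), for the 128 matrix and adhesion genes (orange) and for all named genes (grey), with the number of genes above each bar. The share climbs to 78.1% and 70.6% in the brightest class.

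The upstream sequences of 4 genes are shown. Cyr61 and Timp1 had large falls, and Itga5 had the largest fitted rise among the 128 genes. Col6a1 rose by 1.86 (log2), near the median rise of 1.84. The 4 genes were chosen after the values were seen. The sequences are the 250 bases before the transcription start in RefSeq's mouse build GRCm38.p6, which held an entry for 79 of the 128 genes. Capitals mark CATTCC on either strand (GGAATG when read in reverse), the core that TEAD factors recognise, and TGANTCA, the core of AP-1 sites, which reads the same on both strands. Cyr61, listed there as Ccn1, lies on the minus strand at chr3:145649986-145650235, Timp1 on the plus strand at chrX:20869916-20870165, Itga5 on the minus strand at chr15:103366792-103367041, and Col6a1 on the minus strand at chr10:76726045-76726294.
Cyr61: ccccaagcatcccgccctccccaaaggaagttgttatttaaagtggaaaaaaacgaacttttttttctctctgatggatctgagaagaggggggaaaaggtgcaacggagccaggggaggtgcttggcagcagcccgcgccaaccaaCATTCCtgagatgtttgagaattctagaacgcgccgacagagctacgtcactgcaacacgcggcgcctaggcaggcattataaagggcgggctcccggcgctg
Timp1: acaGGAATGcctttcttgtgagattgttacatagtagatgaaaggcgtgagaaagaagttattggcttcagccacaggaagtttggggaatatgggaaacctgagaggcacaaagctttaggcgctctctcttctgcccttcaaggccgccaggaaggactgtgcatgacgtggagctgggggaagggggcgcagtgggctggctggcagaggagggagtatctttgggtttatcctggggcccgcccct
Itga5: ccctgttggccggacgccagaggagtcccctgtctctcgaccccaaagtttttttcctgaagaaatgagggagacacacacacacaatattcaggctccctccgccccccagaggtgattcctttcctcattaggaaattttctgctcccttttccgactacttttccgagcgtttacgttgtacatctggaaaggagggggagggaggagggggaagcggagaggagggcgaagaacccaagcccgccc
Col6a1: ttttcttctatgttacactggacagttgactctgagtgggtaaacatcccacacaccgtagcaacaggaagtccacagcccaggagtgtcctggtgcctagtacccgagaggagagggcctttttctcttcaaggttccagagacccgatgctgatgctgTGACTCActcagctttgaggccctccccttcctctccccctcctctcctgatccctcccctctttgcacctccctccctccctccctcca
Cyr61 and Timp1 hold CATTCC once each, Col6a1 holds TGANTCA once, and Itga5 holds neither. CATTCC stood in 8 of the 79 promoters (10.1%), in 5 of the 31 of genes that fell and in 3 of the 47 of genes that rose, against 12.6% of all 27025 promoters. TGANTCA stood in 7 (8.86%), in 1 of the 31 of genes that fell and in 6 of the 47 of genes that rose, against 6.87% of all. A match is only a run of letters.

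Secreted glycoproteins went both ways, and 3 of 6 fell by large factors. Fn1 encodes fibronectin, the ligand of several integrins. Its probe read −8 and 23 with berberine, against 24776 and 20641 with AAPH alone, a fall of at least 191-fold. In the authors' deposited table its ratio is left blank. Cyr61, a matricellular protein and integrin ligand that is a standard target of YAP and TEAD, read 239 and 195 with berberine against 23899 and 18772, and fell 88.8-fold (log2 −6.47 ± 0.214). Thbs1, which encodes the matricellular protein thrombospondin-1, read 336 and 256 against 18649 and 13465 and fell 43.7-fold. All 3 were bright with AAPH alone, and with berberine Fn1 lay at background and the others only a little above it. Thbs2, its relative, was dim throughout, at 23 and 24 with berberine and 112 and 109 with AAPH alone, and was detected in neither group. The other glycoproteins went the opposite way. Ecm1, a secreted protein of skin and vessel matrix, read 25302 and 24438 against 9330 and 7408 (2.88-fold higher). Fbn1, the fibrillin of elastic microfibrils, read 3794 and 3819 against 2644 and 2301 (2.68-fold higher), but on deposited values its log2 change was 0.63 and did not pass (limma adjusted p = 0.109). In a bulk sample fewer cells making a transcript and less of it per cell cannot be told apart.

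**Figure D3:**
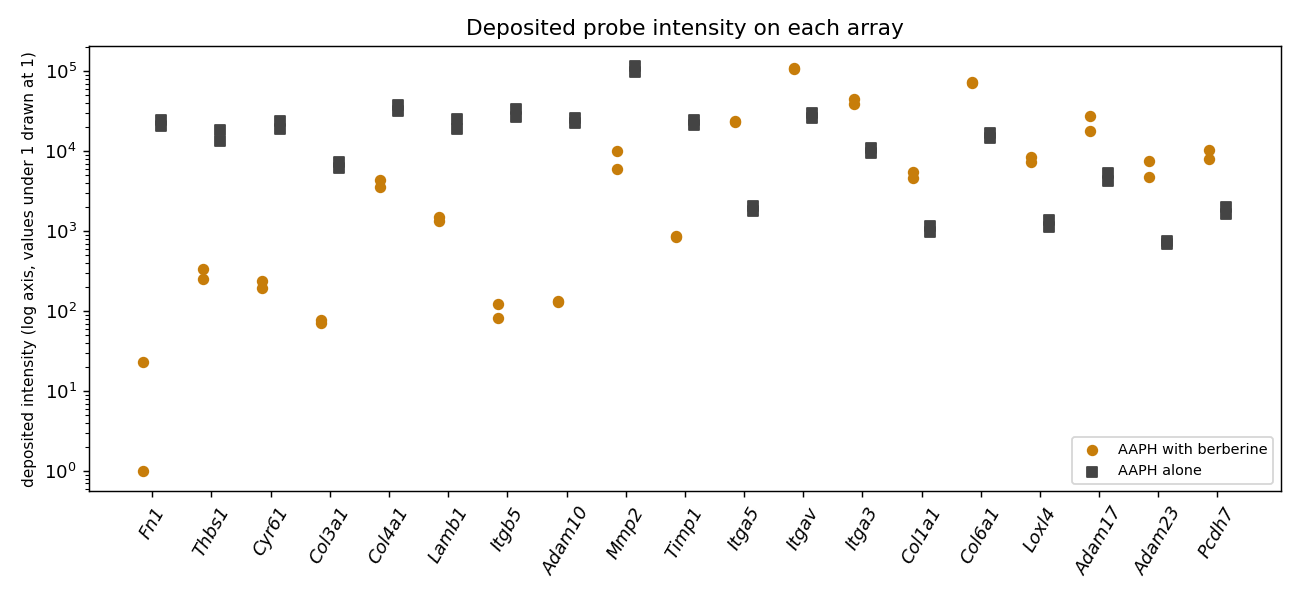
Deposited intensity (y axis, log scale) of 19 genes on each array, with berberine (orange circles) left of AAPH alone (grey squares), 2 arrays each. The first 10 genes, Fn1 to Timp1, lie lower with berberine and the last 9, Itga5 to Pcdh7, higher, and within no gene do the groups overlap.

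Among the 23 collagens 13 rose and 10 fell. Chains that assemble into the same molecule often parted. Type I collagen, the main fibrillar collagen, is built of Col1a1 and Col1a2 chains. Col1a1 read 5541 and 4614 with berberine against 1161 and 988 with AAPH alone and rose by 2.96 ± 0.113 on the log2 scale, whereas Col1a2 read 4756 and 2711 against 13945 and 10513 and fell by 1.51 ± 0.197. The Col1a2 fall did not pass without AAPH-only replicate 1 (limma adjusted p = 0.0518) or after median centring (limma adjusted p = 0.0893). Type VI collagen makes beaded filaments around cells. Col6a1, at 72864 and 71051 against 16705 and 14486, rose 3.63-fold, and Col6a2, at 4001 and 4031 against 1081 and 722, rose 7.65-fold. Col6a3, the chain completing the trimer, was at background with berberine (122 and 135 against 2605 and 2253) and at least 11.1-fold lower. Type V collagen, which sets the width of type I fibrils, split likewise. Col5a1 rose 3.84-fold and Col5a3 6.11-fold, while Col5a2 read 2692 and 2367 against 10845 and 8752 and fell 2.89-fold. Of 9 listed fibroblast markers 4 were measured, of which Col1a1, Col1a2 and Col3a1 are collagens of this set and the other is Dcn, with 1 higher and 3 lower. Of 5 listed pericyte and smooth muscle markers Acta2 and Cspg4 were measured and both rose, Acta2 (smooth muscle actin) at 63944 and 51435 with berberine against 9988 and 7697. Cspg4 read 277 and 436 against 235 and 98, at background with AAPH alone, and did not pass on deposited values (limma adjusted p = 0.184). The part of these fibroblast, pericyte and smooth muscle markers in the collagen values was not tested.

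Other fibrillar and network collagens fell clearly. Col3a1, the type III chain of soft tissues, read 71 and 78 with berberine against 7398 and 6135 and was at least 45.1-fold lower. Col4a1, a chain of the type IV network of basement membranes, read 4390 and 3535 against 38210 and 31449 and fell by 3.10 ± 0.109. Its array ranges lay far apart, and the probe stayed well above background in both groups. Col12a1, a fibril-associated collagen, was at least 13.6-fold lower, and Col9a1, of the type IX collagen best known from cartilage, read 190 and 236 against 4618 and 4109 and fell 12.6-fold. Rises were seen in Col24a1, a minor fibrillar collagen, at 265 and 255 with berberine against 45 and 59 at background (at least 3.42-fold). Col4a5, another type IV chain, gave no single answer. Its brighter probe read 7771 and 6408 against 2316 and 1855 (log2 2.42 ± 0.109) and its dimmer probe 394 and 357 against 2164 and 1835 (−1.40 ± 0.129). Col8a1, a short-chain collagen of vessel walls and the eye, was among the brightest, at 78696 and 70003 against 21676 and 16535 (2.99-fold higher). The other 8 collagens were 5 rises, from Col11a2 (log2 1.08) to Col7a1 (2.58), and 3 falls, Col11a1 (−2.09), Col28a1 (at least 2.62-fold) and Col2a1 (at least 1.72-fold). The rises of Col11a2 and Col14a1 did not pass on deposited values (log2 0.042 and 0.69, limma adjusted p = 0.917 and 0.188), and the groups of Col11a2 overlapped.

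Laminins, the cross-shaped trimers of basement membranes, fell in 3 of 4 genes. Lamb1 read 1523 and 1330 with berberine against 25604 and 19225 with AAPH alone and fell by 3.62 ± 0.123. Lamc1, the γ1 chain found in most laminins, read 4795 and 3840 against 21806 and 15770 and fell by 2.02 ± 0.133. Lama4, the α4 chain of vascular laminins, read 982 and 829 against 3899 and 3010 and fell by 0.91 ± 0.123. These are the α, β and γ chains of 1 known laminin trimer, and all moved down. Lamb1 and Lamc1 belonged to the brightest class with AAPH alone, where 70.6% of all named genes fell. Lama4 belonged to the class below, where 47.8% fell. Lamc3, a γ chain of restricted expression, read 833 and 1056 against 676 and 560 and rose 3.04-fold after normalization, but on deposited values its log2 change was 0.61 and did not pass (adjusted p = 0.163).

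Enzymes that modify collagen were divided within each family. Prolyl 4-hydroxylase stabilises the triple helix. Its catalytic subunit gene P4ha2 read 2 and 25 with berberine against 981 and 660 and was at least 4.31-fold lower, while P4ha1 read 6317 and 3981 against 3742 and 2914 and rose 2.39-fold after normalization. Plod1 and Plod2 encode lysyl hydroxylases, which prepare lysines for crosslinking. Plod2 read 140 and 186 against 7239 and 6955 and fell by 5.03 ± 0.177, and Plod1 read 1001 and 1031 against 837 and 513 and rose 3.09-fold. The Plod2 probe lay close to background with berberine (authors' detection p-value 0.00916). Neither the P4ha1 nor the Plod1 rise passed on deposited values (adjusted p = 0.264 and 0.229). Lysyl oxidases then crosslink collagen and elastin. Loxl4 was the clearest of them, at 8499 and 7424 against 1370 and 1125 (log2 3.31 ± 0.112), and its other 2 probes rose by 2.54 and 2.57. Loxl2 read 198 and 266 against 103 and 99, at background, with deposited means 2.30-fold apart. Lox and Loxl3 were at background with berberine and, by the bound, at least 1.04-fold and 1.17-fold lower, bounds close to no change. The probes of Loxl1 parted, 838 and 942 against 860 and 759 on the brighter (log2 1.19) and 43 and 77 against 633 and 536 on the dimmer, at background with berberine (at least 3.24-fold lower). The brighter probe overlapped between groups and did not pass on deposited values (limma adjusted p = 0.694).

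Genes of procollagen processing outside these families followed a similar divide. Of 15 listed, 10 were measured, with 4 higher and 6 lower. On deposited values 1 of these rises and 1 of these falls did not pass. Pcolce, an enhancer of the protease that removes the C-propeptide, read 72 and 103 with berberine against 55441 and 48307 and was at least 464-fold lower. Bmp1, that protease, read 18703 and 15164 against 5144 and 3474 and rose 4.90-fold. Leprel2, at 21090 and 15807 against 2843 and 2093, rose 10.1-fold. P4hb, the β subunit of prolyl 4-hydroxylase and a disulfide isomerase, fell 21.1-fold, and the collagen-binding prolyl isomerase Fkbp10 fell 31.4-fold. Among serpins, Serpinh1, the collagen chaperone HSP47 of the endoplasmic reticulum, read 30971 and 26471 against 117576 and 96548 and fell by 2.32 ± 0.110.

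Of 41 other matrix proteins listed, 16 were measured, with 7 higher and 9 lower (43.8% and 56.2%, against 55.6% and 44.1% of all named genes). On deposited values 3 of these rises and 1 of these falls did not pass. Bgn, the small proteoglycan biglycan, read 1316 and 1323 with berberine against 73191 and 69583 and fell 46.0-fold. The related Dcn, decorin, was at background with berberine (40 and 76 against 1009 and 896, at least 4.97-fold lower), and Tnc, tenascin-C of developing neural tissue, fell 2.72-fold. In the other direction Nid2, nidogen-2 of basement membranes, read 82214 and 84048 against 25584 and 24950 and rose 2.41-fold, and Ltbp4, which anchors latent TGF-β in the matrix, rose 10.8-fold. The direction of these genes was therefore mixed as well.

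Heparan sulfate proteoglycans bind growth factors and matrix at the cell surface. All 3 measured syndecans fell. Sdc4, the syndecan of focal adhesions, read 246 and 286 with berberine against 7200 and 6868 and fell by 4.21 ± 0.162, Sdc2 fell by 1.72 ± 0.118 and Sdc1 by 1.71 ± 0.154. The syndecan groups did not overlap on the deposited values, as was true of 44.2% of all named genes as lower and 52.2% as higher. Sdc2 and Sdc4 belonged to the brightest class with AAPH alone, where 70.6% of all named genes fell. Sdc1 belonged to the class below, where 47.8% fell. Glypicans, anchored by a lipid, were less uniform. Gpc4 read 3459 and 3054 against 1845 and 1520 and rose 3.55-fold, and Gpc5 read 483 and 527 against 343 and 284 and was 2.91-fold higher after normalization. Gpc6 was 2.50-fold higher on its brighter probe (2793 and 1839 against 1937 and 1630, with overlap) and was at least 3.58-fold lower on the dimmer. Neither the Gpc5 nor the Gpc6 rise passed on deposited values (limma adjusted p = 0.0999 and 0.458). Gpc1, among the brightest of these genes, read 105178 and 112969 against 145926 and 138700, with a log2 change of −0.88 ± 0.172 after quantile normalization, −0.38 on deposited values (adjusted p = 0.26) and 0.23 after median centring, so its direction depended on the scaling.

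Integrins showed 6 rises and 6 falls among 12 subunits, all of which also passed on deposited values. By that test 31.1% of all named genes were higher and 43.3% lower. After median centring the Itga1 fall did not pass (limma adjusted p = 0.0567). Itga5, whose α5 chain pairs with β1 as the main fibronectin receptor, read 23900 and 23433 with berberine against 2068 and 1799 and rose by 4.03 ± 0.139, the largest fitted rise among the 128 genes, while its ligand Fn1 fell. Itgav, the αv chain that binds fibronectin and vitronectin with several β chains, read 109941 and 106416 with berberine against 30386 and 25730 and rose 2.79-fold. Itgb3, a partner of αv, read 8804 and 7061 against 3702 and 2972 and rose 3.48-fold. Itgb5, another partner of αv, did the reverse. It read 81 and 124 against 33756 and 26764 on its brighter probe and 52 and 84 against 13199 and 9475 on the other, at least 245-fold and 83.6-fold lower. The vitronectin gene Vtn, a ligand of αv with either partner, fell 4.78-fold. Itga3, a laminin-binding chain, read 45417 and 39447 against 10924 and 9623 and rose 3.62-fold.

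Further laminin receptors fell. Itga6 and Itgb4 form the α6β4 integrin of hemidesmosomes. Itga6 read 256 and 256 with berberine against 2145 and 1806 and fell 4.06-fold, and Itgb4 read 71 and 125 against 1059 and 927 and was at least 4.80-fold lower. Itga7, a laminin receptor best known in muscle, read 1032 and 989 against 7349 and 5789 and fell 3.92-fold. Itga4 and Itgb7, which pair in lymphocytes, both rose, at 1269 and 1152 against 581 and 492 (4.34-fold) and at 827 and 777 against 342 and 305 (4.58-fold). Itgax, of the leukocyte receptor CD11c, was at least 3.18-fold lower, and Itga1, a collagen receptor chain, at least 1.28-fold. The immune markers Cd68 and Csf1r, the only measured ones of 5 listed, moved apart, summed to 200 to 272 with berberine and 925 to 1062 with AAPH alone, and Cd68 was at background with berberine. Their part in the leukocyte integrin values was not tested.

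**Figure D4:**
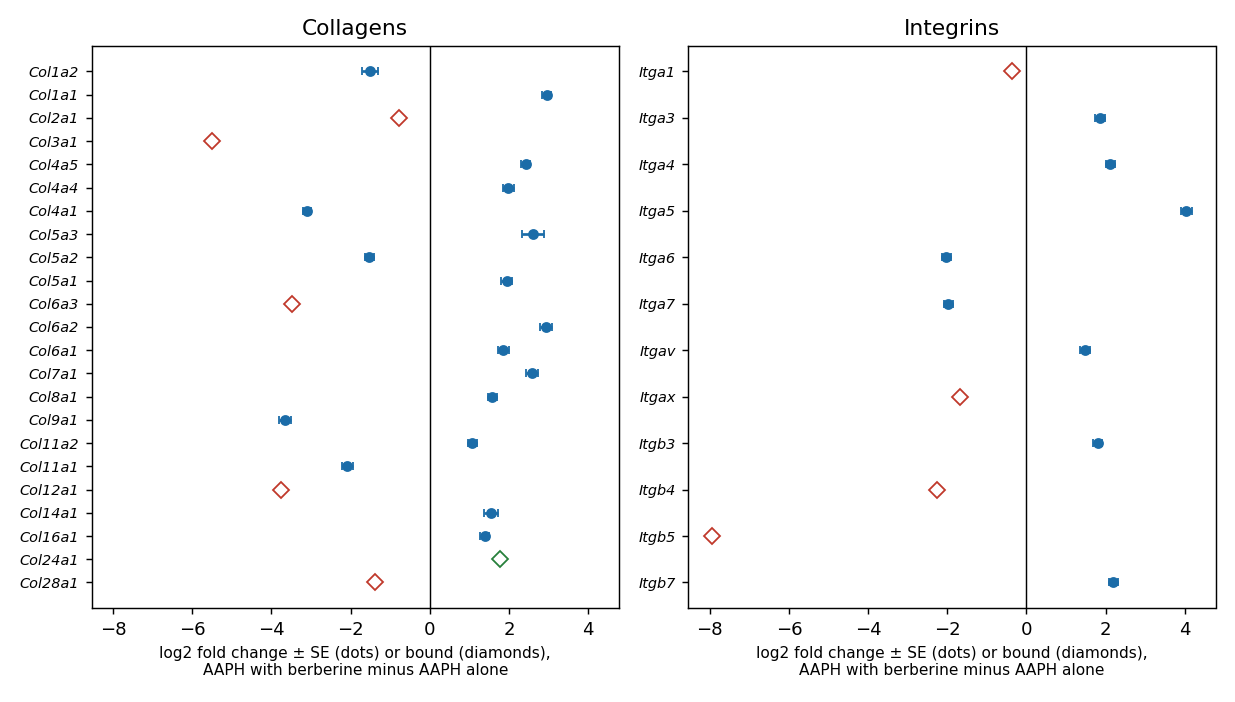
Log2 fold change (x axis, berberine over AAPH alone) of the 23 collagen genes (left) and the 12 integrin subunits (right), 1 row per gene. Dots with bars are fitted values ± SE (n = 2 arrays per group) and open diamonds are bounds for probes at background in a group. Col1a1 lies opposite Col1a2, Col6a1 and Col6a2 opposite Col6a3, and Itgb3 opposite Itgb5.

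Inside the cell integrins act through focal adhesions. Of 27 listed focal adhesion and integrin signalling genes 13 were measured, with 8 lower and 5 higher and a median log2 fold change of −4.80, against 1.22 for all named genes. All but 1 of the 8 falls were at least 16-fold. Ilk, the integrin-linked kinase, read 208 and 225 with berberine against 15379 and 12378 and fell 52.9-fold, its partner Parva fell 43.2-fold, and the adaptors Pxn (paxillin) and Bcar1 (p130Cas) fell 27.9-fold and 33.2-fold. The tetraspanins Cd9 and Cd151, which accompany integrins in the membrane, were at least 208-fold and 133-fold lower. In the other direction Vcl (vinculin) read 101141 and 90741 against 33735 and 27624 and rose 2.22-fold, Actn1 (α-actinin) rose 2.54-fold and Tns1 (tensin) 14.2-fold. Tns3, counted as higher after normalization, read 1355 and 1645 against 1779 and 1273, with overlap. On deposited values its log2 change was −0.011 and did not pass (limma adjusted p = 0.981). With AAPH alone the list had a median normalized log2 level of 13.4, against 13.5 for all named genes of the brightest class, of which 70.6% fell. The median log2 fold change of all named genes in that class was −2.18.

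Cadherins were divided too, with 4 higher and 5 lower among 9. The falls were of Cdh19, expressed in the Schwann cell lineage, at 92 and 116 with berberine against 4080 and 2982 (at least 18.3-fold), of Cdh26, at 296 and 145 against 4079 and 3604 (11.5-fold), of Cdh10, a neuronal cadherin, at 29 and 56 against 572 and 545 (at least 3.14-fold), and of Cdh13, a cadherin anchored by a lipid (at least 1.69-fold). The Cdh26 fall did not pass without AAPH-only replicate 1 or 2 (limma adjusted p = 0.0573 and 0.0642). Cdh15, a muscle cadherin, was at background with berberine, at least 1.07-fold lower. Cdh22, a cadherin of the brain, was the clearest rise, at 434 and 436 against 116 and 100 (log2 2.64 ± 0.113). This probe lay close to background with AAPH alone (authors' detection p-value 0.00875), so the size of the rise is uncertain. Its second probe was at background there, at 345 and 295 against 110 and 106 (at least 4.21-fold higher). The epithelial Cdh1, the endothelial Cdh5 and the gut cadherin Cdh17 had log2 changes of 1.45, 1.26 and 1.59 after normalization, from low intensities, and none passed on deposited values (adjusted p = 0.154, 0.0945 and 0.161). Cdh1 was the only measured one of 5 epithelial markers, and Cdh5, Cldn5 and Esam were the measured ones of 6 endothelial markers, which summed to 1606 to 1712 with berberine and 1134 to 1275 with AAPH alone. Their part in these cadherin values was not tested.

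Of 19 genes listed as cadherin partners 8 were measured, with 3 higher and 5 lower. Of all named genes 55.6% rose and 44.1% fell. Ctnnb1, β-catenin, which binds the cadherin tail and also carries Wnt signals, read 608 and 539 with berberine against 62325 and 51490 and fell by 6.35 ± 0.121. Jup, the related plakoglobin, fell 2.69-fold. The armadillo protein Pkp4 read 31266 and 23865 against 10707 and 8606 and rose 2.63-fold. The rises of Mllt4 and Pvrl3 did not pass on deposited values (limma adjusted p = 0.184 and 0.162).

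Protocadherins, which mediate recognition between neurons, were higher in 9 of 12 genes. With AAPH alone the family had a median normalized log2 level of 8.66, within the dimmest class, where 77.8% of all named genes rose. Pcdh7 read 10415 and 7955 with berberine against 2027 and 1657 and rose by 2.92 ± 0.114. Of the 7 measured genes of the clustered β family all rose, from Pcdhb4 (log2 1.51) to Pcdhb9 (2.73, at least 3.08-fold by the bound), with Pcdhb16 judged on its brighter probe. The Pcdhb4 rise did not pass on deposited values (limma adjusted p = 0.065). Pcdhb17 read 1974 and 1683 against 542 and 463 (6.58-fold higher), though its authors' detection p-value with AAPH alone was 0.0079, near the cut of 0.01. These neighbouring genes resemble each other closely, and a probe may not separate them. The second probe of Pcdhb16 ran the other way (61 and 77 against 361 and 334, at background with berberine and at least 2.07-fold lower, against a log2 rise of 2.65 on the brighter), as did that of Pcdh20 (180 and 145 against 611 and 495, log2 −1.11, against 2.67). The 3 falls were Pcdh1, at 70 and 95 against 2146 and 1640 (at least 9.58-fold), Pcdh18 (at least 8.08-fold) and Pcdh17 (at least 3.21-fold), all at background with berberine.

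Of 10 matrix metalloproteinases 6 rose and 4 fell, and Mmp2 and Mmp14, the brightest with AAPH alone, were among the falls. Mmp2, gelatinase A, read 10119 and 5974 with berberine against 115986 and 98660 and fell by 3.95 ± 0.178. Mmp14, the membrane protease that activates pro-MMP2, read 11720 and 8350 against 39505 and 31490 and fell by 2.03 ± 0.125. Timp1, an inhibitor of MMPs, read 857 and 879 against 24487 and 21361 and fell by 4.32 ± 0.120, so protease, activator and inhibitor transcripts were all lower. Mmp11 (stromelysin-3) and Mmp24, a membrane MMP of neural tissue, fell 7.68-fold and 7.09-fold. Mmp19 was the clearest rise, at 7712 and 7647 against 2274 and 1787 (5.89-fold). Mmp23 read 466 and 338 against 114 and 127, at background, with deposited means 3.34-fold apart, and Mmp21 was 3.11-fold higher, both from low intensities. Mmp10, stromelysin-2, read 6014 and 3597 against 3709 and 2874, overlapping, and its 2.28-fold rise after normalization did not pass on deposited values (adjusted p = 0.36). Mmp13 read 2066 and 1566 against 1898 and 1551, also overlapping. Its 2.14-fold rise after normalization did not pass on deposited values either (log2 0.068, limma adjusted p = 0.881). The other 4 rises passed there.

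ADAM proteases release ectodomains from the cell surface. Adam10 and Adam17, the main sheddases, went opposite ways. Adam10, which cuts Notch and N-cadherin, read 130 and 135 with berberine against 26085 and 22557 and fell 178-fold (log2 −7.48 ± 0.134). Its probe lay close to background with berberine (authors' detection p-value 0.00798, against the cut of 0.01), so the size of this fall is uncertain. Adam17, which releases TNF and EGF receptor ligands, read 27397 and 17883 against 5384 and 4296 and rose 5.34-fold (log2 2.42 ± 0.153). Adam23, a brain ADAM without protease activity, read 7661 and 4706 against 750 and 689 and rose 12.6-fold. Adam15 fell by 2.49 on the log2 scale, at 1092 and 990 against 10059 and 7906, and Adam12 fell 4.83-fold. The other rises in this family, 7 genes from Adam11 (log2 1.52) to Adamdec1 (2.19), read no higher than 3094 on any array, and 3 of these 7, Adam8, Adam32 and Adamdec1, also passed on deposited values. ADAMTS proteases are secreted and act on proteoglycans and procollagen. Adamts7 read 179 and 166 against 5602 and 4821 and fell by 4.35 ± 0.157, and the aggrecanase Adamts4 was at least 3.92-fold lower. Adamtsl4, an ADAMTS-like protein of fibrillin microfibrils, read 3480 and 2361 against 283 and 305 and rose by 3.93 ± 0.197. Adamts19 read 1495 and 1655 against 315 and 129, at background by the detection p-value, and its deposited means were 7.09-fold apart. Adamts9 and Adamts20 rose 4.14-fold and 3.08-fold without passing on deposited values (adjusted p = 0.0694 and 0.125).

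Serpins trap proteases, and 5 of 11 rose while 6 fell. Serpinb6a, an intracellular serpin, read 1377 and 1414 with berberine against 26761 and 22852 and fell 14.0-fold, while its paralogue Serpinb6b read 611 and 638 against 373 and 356 and was 3.19-fold higher after normalization. Serpina3n, an acute-phase serpin of reactive astrocytes, was at background with berberine (11 and 32 against 772 and 644) and at least 3.86-fold lower. Serpina6, which encodes the corticosteroid-binding globulin, read 3950 and 4695 against 2386 and 849, and its AAPH-only arrays differed so much that the rise had an error of 0.452 (log2 2.35) and did not pass on deposited values (adjusted p = 0.114) or without either berberine array (limma adjusted p = 0.0892 and 0.132). Serpinb8, an intracellular serpin, read 485 and 519 against 292 and 295 and was 3.09-fold higher after normalization. Neither the Serpinb6b nor the Serpinb8 change passed on deposited values (adjusted p = 0.0601 and 0.0611). Serpini1 (neuroserpin) and Serpinb1b rose from background, at least 2.33-fold and 2.35-fold, and the Serpinb1b rise did not pass without AAPH-only replicate 1 (limma adjusted p = 0.0767). Serpina3m was detected in neither group, at 2 and 34 with berberine and 81 and 88 with AAPH alone. Of the 3 genes caught by letters only, Col4a3bp fell 6.25-fold, Itgbl1 rose 7.12-fold and Itgb1bp1 was 2.48-fold higher after normalization, with a log2 change of 0.35 on deposited values that did not pass (limma adjusted p = 0.4).

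How far the rises can be relied on depended on normalization. On the values as deposited all 128 genes kept their direction, but 44 of the 72 rises and 53 of the 55 falls passed, against 13.4% of all probes higher and 19.8% lower. Rises made up 44.9% of the calls there and 56.7% after quantile normalization. Of all named genes 31.1% were higher and 43.3% lower by that test. On the deposited values 66 of the 72 rises and all 55 falls had groups that did not overlap, against 52.2% of all named genes higher and 44.2% lower without overlap (35.3% and 31.6% of all probes). Group means were less than 2-fold apart for 29 of the 72 genes with a positive log2 ratio in the authors' deposited table. Over the 127 genes with a ratio the authors' log2 ratio exceeded the log2 ratio of their own means by a median of 0.54. Mmp13 is an example, at 2066 and 1566 with berberine against 1898 and 1551 and a log2 ratio of 1.12 in the authors' deposited table. The smallest log2 ratios that entered the table among these genes were 1.05 (Cdh5) and −1.07 (Lama4).

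**Figure D5:**
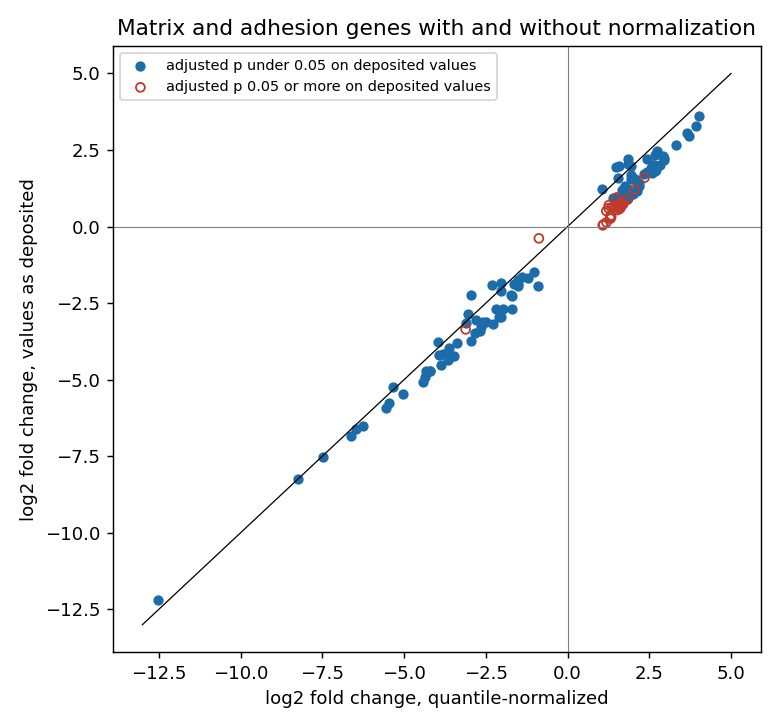
Log2 fold change of the 128 genes after quantile normalization (x axis) against that on deposited values (y axis). The diagonal marks equal values. Open red circles, 30 genes that did not pass on deposited values, lie mostly among the small rises.

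Different probes of a gene could disagree. Several named probes were present for 11 of the 128 genes, and in 5 of these they moved in opposite directions (45.5%), against 47.5% of the 623 such genes in the sheet. The 5 were Col4a5, Gpc6, Loxl1, Pcdh20 and Pcdhb16, while Itgb5 and Loxl4 agreed across their probes. Opposite movements of chains of 1 molecule, each measured by 1 probe, therefore cannot be told apart from differences between probes.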

How the data were processed

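The authors' deposited value table gives linear intensities of 26423 probes on 4 arrays. The sources used here do not say how background and scaling were handled. Per the file headers, a deposited sheet of 9800 called probes gives detection p-values, mean normalized intensities, a coefficient of variation (the authors' score of spread, not used), log2 ratios and p-values for groups G1 and G3. The G1 means lay within 5% of the AAPH-only means for 99.9% of probes and the G3 means within 5% of the berberine means for 99.2%. The whole-series tables held 0 columns of other samples.

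A floor of 1 was set on the intensities before taking log2 and quantile normalization, and all probes were fitted with limma 3.58.1 (R 4.3.3), 2 arrays against 2, with Benjamini-Hochberg adjustment and a threshold of 0.05. The fit was tested on data simulated on the normalized scale with few probes changed, so the normalization itself was not tested there. A gene was represented by its brightest named probe. A bound compares the mean of the detected group with, per dim array, the higher of the probe's value and the lowest value among detected probes. Precision is limited by the number of arrays.

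Genes named are all members of roles with 8 or fewer, the 4 largest rises and falls of larger roles (falls at background ranked by bound), a fixed list, and genes whose probes disagreed. Other named genes were chosen after their values were seen, and 1 serpin is counted but not reported here by name. Members and lists were chosen with earlier results of these data known. Alternatives were deposited values, median centring, other floors, other probe choices, a filter on dim probes, a replicate block and leaving out each array. Coordinates are those of the RefSeq promoters only.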

Additional observations from a re-analysis of the deposited data

How the results depend on the processing

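The direction of all 128 genes held on deposited values, with floors or added constants of 16, with the replicate block and without each array in turn. After median centring Gpc1 turned to 0.23 (log2), and Col1a2, Gpc6, Itga1, Lox, Mmp10, Mmp13, P4ha1 and Serpina3m lost their call. Averaging the probes of each gene turned Gpc6 (−0.47) and Loxl1 (−0.79), and with the dimmest probe Col4a5 (−1.40), Gpc6 (−2.26), Loxl1 (−2.77), Pcdh20 (−1.11) and Pcdhb16 (−1.91) turned, by fitted values, with those of Gpc6, Loxl1 and Pcdhb16 at background with berberine. On deposited values 8770 of all probes were called (3534 higher), against 16578 (10635 higher) after quantile normalization; 44 of the 128 genes were called higher, the median log2 fold change of all 128 was 0.53, and 3 of 13 role groups had more rises than falls, against 6. The median log2 difference of all probes was 0.13 there and 0.74 after median centring. Leaving out dim probes, a filter that a fall itself decides, left 3657 probes called lower, and 31 of the 94 genes detected in both groups. Without an array, its group's lone array being assumed to vary like the other group, 119 to 127 of the 128 genes were called, 68 to 71 of them higher, and the median log2 fold change of all 128 ran from 1.27 to 1.32. A call was lost without either AAPH-only array by Adam29, Adamts17, Cdh26, Gpc1, Mmp10 and Serpina3m, and without AAPH-only replicate 1 also by Col1a2 and Serpinb1b. Serpina6 lost its call without either berberine array. The replicate numbers did not pair the samples (correlation of replicate differences between the groups −0.0156 over all probes), and the replicate block left 127 genes called and 15558 probes.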
